A study of Mus musculus with 2 samples.

Results

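Naive-like T cells were taken here as T cells that carried transcripts of Lef1 or Tcf7, a pair of transcription factors of the naive state. A cell was a member when it had at least 1 UMI (unique molecular identifier, 1 counted transcript molecule) of Cd3d, Cd3e or Cd3g, at least 2 UMIs of Lef1 and Tcf7 together, no Foxp3, Ncr1, Klrb1c or Cd79a UMI, fewer than 2 UMIs of Trdc and Tcrg-C1 together, fewer than 2 of Il1rl1 and Gata3 together, and at most 1% of its UMIs from 5 neutrophil genes. Of 7734 filtered cells, 194 met this rule, 138 of 3364 in the vehicle library and 56 of 4370 in the Momordicine-I library. The members were thus chosen by their measured counts of these genes, in the same libraries that are described below, so the levels of these genes and the number of members are a description. Cd4 and Cd8 cells both entered.

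The cells came from tumours of MOC2, a mouse oral carcinoma line, grown under the skin of female C57BL/6 mice aged 6 to 7 weeks. Once tumours were palpable, mice were given Momordicine-I, a triterpenoid of bitter melon, at 30 mg/kg by intraperitoneal injection each day, or its vehicle of 5% DMSO and 95% of a 30% Captisol solution. Of 10 mice per arm, the tumours of 3 were pooled, and cells were sorted with a CD45 antibody and propidium iodide. Each arm was therefore 1 library of the 10x Genomics 3' v3.1 kit, and all mice carried the same transplanted line. Treatment cannot be told apart from any other difference between the 2 libraries, values are set side by side without any test. Intervals are exact 95% intervals that cover counting error only. For gene levels they treat the UMIs of a cell as independent and leave out variation between cells and mice.

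Naive T cells leave the thymus and circulate between blood and lymphoid tissue until they meet their antigen. The chemokine receptor Ccr7 brings them into lymph nodes, and the lipid receptor S1pr1 lets them out again. Lef1, Tcf7, Satb1, Bach2 and Foxp1 hold the naive state, Klf2 drives S1pr1, and Il7r gives the survival signal that sustains Bcl2. On activation these genes are turned down while cytokine, chemokine and granule genes are turned on. Inside tumours such cells are usually a minority, and Tcf7 also marks memory and stem-like T cells there.

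The deposited counts held 33998491 UMIs in 3642 vehicle barcodes and 41804810 UMIs in 4693 Momordicine-I barcodes. The libraries shared 10 barcode sequences, and 1 of these belonged to a member. Some members carried transcripts of other cell types. At least 5 UMIs of carcinoma, fibroblast, monocyte and macrophage, or dendritic markers were found in 10 vehicle and 5 Momordicine-I members, which held 42.4% and 45.3% of all member UMIs. A single vehicle member with 442133 UMIs and 2 Momordicine-I members had 100 or more carcinoma UMIs beside a single Cd3 UMI. These barcodes dominated the sums: over all members the genes farthest above vehicle in Momordicine-I included Rhox5, Clu and Sparc, with 99.3% of the Rhox5 UMIs in 1 cell, and those farthest below it included Krt14, Ccl17 and Mgl2, with 98.8% of the vehicle Krt14 UMIs in 1 cell. Gene levels are therefore given for the 128 vehicle and 51 Momordicine-I members without such markers, a choice made after the data were seen, and all-member values are given for several results. The reduced sets held 982493 and 381351 UMIs, with medians of 7321.5 and 6540 UMIs per cell. Carcinoma markers then came to 21 and 12 UMIs, and the immature thymocyte genes Rag1 and Rag2 were at 0 in both libraries. B cell marker UMIs were found in 85.9% of vehicle and 58.8% of Momordicine-I members, at 0.0336% and 0.0126% of their UMIs, with Ms4a1 at 0. Neutrophil markers made up 0.0630% and 0.0947% of UMIs. The part of these traces in the results below was not tested.

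Naive-like T cells made up a smaller share of the Momordicine-I library by each denominator. They were 4.10% of vehicle cells (interval 3.46 to 4.83%) and 1.28% of Momordicine-I cells (0.969 to 1.66%), a ratio of 0.312 (0.225 to 0.429). Among cells within the neutrophil limit they were 10.1% (8.55 to 11.8%) and 3.5% (2.66 to 4.53%). Among cells of that kind with a Cd3 UMI they were 29.1% (25.1 to 33.4%) and 12.5% (9.58 to 15.9%), a ratio of 0.429 (0.309 to 0.590). The ratio was thus nearest to 1 when neutrophils and other non-T cells were left out of the denominator. By the same filters the vehicle library held 106 Foxp3 T cells and 63 gamma-delta T cells, and the Momordicine-I library held 68 and 174, so the T cells that made up the last denominator also differed in kind.

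**Figure D1:**
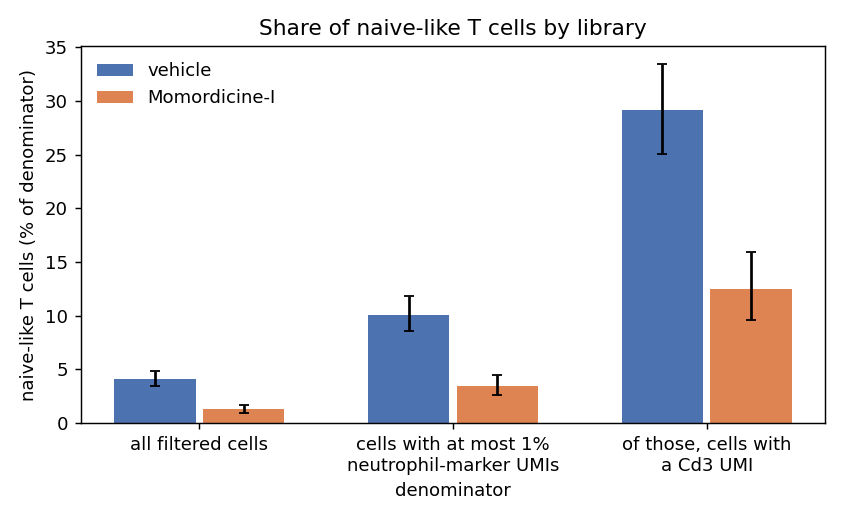
Naive-like T cells as a percent of each denominator (y axis) in the vehicle and Momordicine-I libraries, for all filtered cells, cells with at most 1% neutrophil-marker UMIs, and those with a Cd3 UMI (x axis). Bars are shares in 1 library each and whiskers are exact 95% binomial intervals: 4.10% against 1.28%, 10.1% against 3.5% and 29.1% against 12.5%.

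The label of naive-like T cells was checked against genes that the rule did not use. Satb1 (chr17:51736187-51833290), a chromatin organiser of developing and naive T cells, had a UMI in 97.7% of vehicle and 94.1% of Momordicine-I members. S1pr1 (chr3:115710433-115715072) had one in 84.4% and 78.4%, and Ccr7 in 74.2% and 64.7%. Satb1 and Ccr7 alone do not mark naive T cells: B cells had a UMI of Satb1 in 84.2% and 83.1% and of Ccr7 in 75.4% and 73.0%, and Foxp3 T cells had Satb1 in 71.4% and 58.1%. Dapl1 (chr2:59484653-59505020), a small protein enriched in naive CD8 cells, was found in fewer members, 34.4% and 19.6%, while B cells with a median of 6107 and 4922 UMIs had it in 0% and 1.12%. Transcripts of the alpha-beta receptor constant regions (Trac, Trbc1 or Trbc2) were found in 126 of 128 and 50 of 51 members. A segment of the beta chain (Trbv) was read in 22 vehicle members, which used 11 segments with the commonest of them (Trbv20) in 5 cells, and in 7 Momordicine-I members, which used 6.

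The rule genes themselves ranged widely from cell to cell. Lef1 (chr3:131110471-131224356) stood at 539 counts per 1000000 UMIs (CPM) in vehicle and 409 CPM in Momordicine-I members, and Tcf7 (chr11:52252371-52283014) at 770 and 522 CPM. Members held 2 to 25 Lef1 and Tcf7 UMIs in the vehicle library, with a median of 9, and 2 to 17 in the Momordicine-I library, with a median of 7. Just inside the threshold, with exactly 2 such UMIs, were 6 vehicle and 8 Momordicine-I members, in which S1pr1 stood at 141 and 147 CPM and Icos, a co-stimulatory receptor of activated T cells, at 322 and 830 CPM. Just outside it, with 1 UMI, were 8 and 7 cells, in which S1pr1 stood at 141 and 145 CPM and Icos at 253 and 460 CPM. Members at 10 or more UMIs, 63 and 13 cells, had S1pr1 at 478 and 444 CPM and Icos at 89.4 and 61.9 CPM. Cells with exactly 1 or 2 UMIs thus had less S1pr1 and more Icos than those far inside the threshold, in both libraries. The 7 Momordicine-I cells with 3 UMIs also had less S1pr1 (143 CPM) and more Icos (200 CPM). The 4 vehicle cells with 3 UMIs did not, with S1pr1 at 573 CPM and Icos at 47.7 CPM.

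Set beside the other T cells of the same tumours, naive-like T cells had more Igfbp4, S1pr1, Bach2 and Satb1 transcripts in both libraries, but not more of every gene of the resting state. Il7r, the interleukin 7 receptor of resting T cells, stood at 607 and 587 CPM in members, below Foxp3 T cells at 1288 and 1390 CPM and gamma-delta T cells at 1141 and 1652 CPM. The 77 vehicle and 43 Momordicine-I Foxp3 T cells and the 58 and 154 gamma-delta T cells set beside them are those without other-type markers. Against Foxp3 T cells, which are regulatory T cells, the greatest difference among genes higher in members, outside the rule, was Igfbp4 (chr11:99041244-99054392), a binding protein of insulin-like growth factors, at 747 against 7.51 CPM in vehicle and 325 against 8.56 CPM in Momordicine-I. S1pr1 stood at 469 against 63.0 and 315 against 31.4 CPM. Bach2, a repressor of effector genes, stood at 157 against 21 and 91.8 against 11.4 CPM. In the other direction Klrg1, a receptor of terminally differentiated cells, had no UMI in the members of either library and stood at 488 and 368 CPM in Foxp3 T cells. Il2ra, the high-affinity chain of the interleukin 2 receptor, stood at 22.4 against 1489 and 39.3 against 1250 CPM. The neuropeptide precursor gene Penk also had no UMI in members and stood at 381 and 334 CPM in Foxp3 T cells.

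Against gamma-delta T cells, Ccr7 was at 401 against 23.1 CPM in vehicle and 296 against 18.4 CPM in Momordicine-I. Il6ra, a cytokine receptor chain of naive cells, stood at 171 against 12.6 and 110 against 12.3 CPM. Cd163l1, a scavenger receptor of interleukin 17 producing gamma-delta cells, was at 2.04 against 526 and 5.24 against 976 CPM, and the cytokine gene Il17a itself was at 0 against 583 and 26.2 against 1126 CPM. All 10 Il17a UMIs of the Momordicine-I members came from 1 cell. Cd44, an adhesion receptor of antigen-experienced cells, had a UMI in 24.2% and 37.3% of members and in 76.6% and 76.7% of Foxp3 T cells. Icos followed the same order, with 29.7% and 35.3% of members against 90.9% and 86.0%. Cd44 and Icos were thus found in fewer members than Foxp3 T cells in both libraries.

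**Figure D2:**
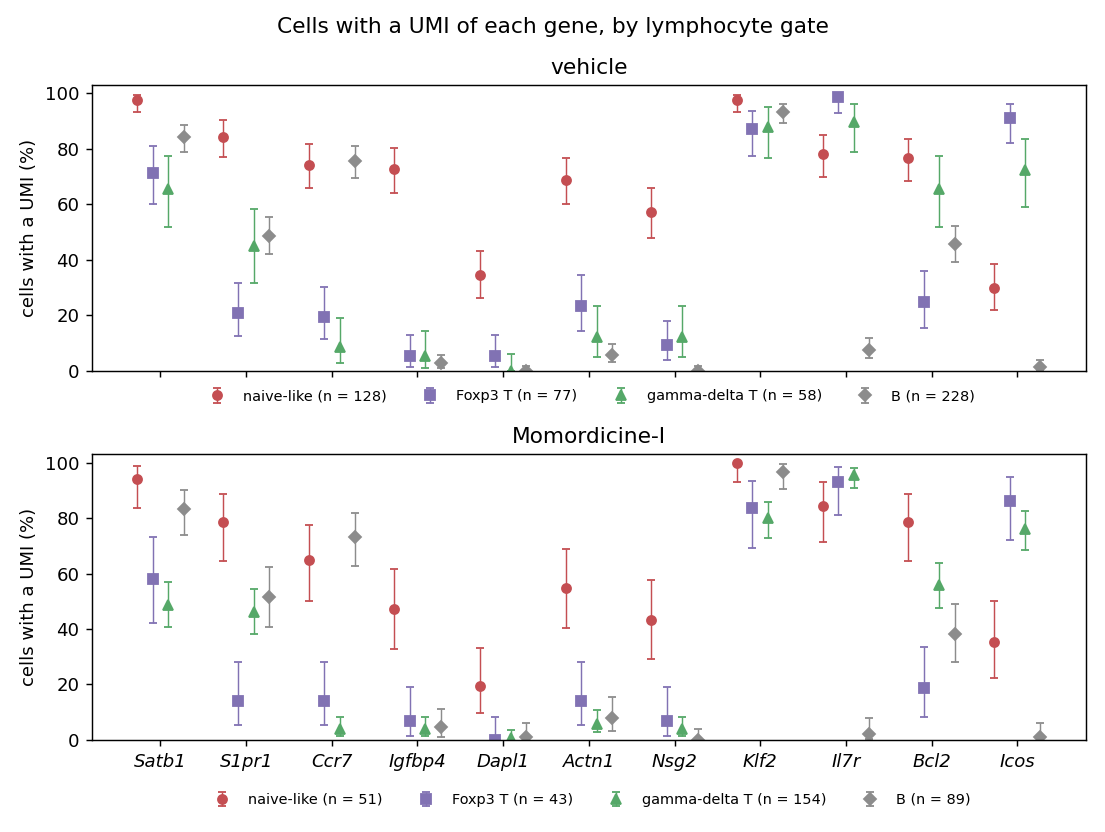
Percent of cells with a UMI (y axis) of 11 genes (x axis) in naive-like T cells and in Foxp3 T, gamma-delta T and B cells, vehicle above and Momordicine-I below; points are shares in 1 library and whiskers exact 95% intervals. Satb1, S1pr1, Ccr7, Igfbp4 and Dapl1 were found in more naive-like T cells than in Foxp3 or gamma-delta T cells, and Icos in fewer.

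Both co-receptor classes were present. In vehicle, 50 members had Cd4 UMIs only, 32 had Cd8a or Cd8b1 UMIs only, 5 had both and 41 had neither. In Momordicine-I the numbers were 15, 12, 1 and 23. Among members with 1 class of co-receptor, Cd8 cells were 39.0% (28.4 to 50.4%) in vehicle and 44.4% (25.5 to 64.7%) in Momordicine-I, and the intervals overlapped. After each cell was thinned to 4000 UMIs the values were 45.6% and 52.4%. No difference in the balance of Cd4 and Cd8 cells was detectable with these cell numbers.

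Cd8 and Cd4 members differed in cytotoxic genes in the same direction in both libraries. Nkg7, a granule protein of cytotoxic cells, stood at 495 CPM in Cd8 and 2.72 CPM in Cd4 members of the vehicle library, and at 720 and 0 CPM in Momordicine-I. It was found in 26 of 32 and 10 of 12 Cd8 members. Klrd1, an inhibitory lectin receptor, stood at 270 against 19 and 266 against 29.6 CPM, and Ctsw, a protease of cytotoxic cells, at 177 against 16.3 and 180 against 19.7 CPM. The chemokine gene Ccl5 and the cytokine gene Ifng were also among the 6 genes highest in Cd8 over Cd4 members, with Ifng in 6 and 2 cells only. Among the 6 genes highest in Cd4 members were Tmem64, a membrane protein, at 147 against 3.00 and 375 against 42.9 CPM, Ecm1, a secreted matrix protein, at 144 against 18 and 365 against 25.7 CPM, and Tnfrsf4, the OX40 co-stimulatory receptor, at 111 against 6.00 and 138 against 0 CPM.

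Between the libraries, Momordicine-I members had lower levels of several genes of the naive state and of the interferon response. Of 6094 genes with at least 20 UMIs over both libraries, 13.9% were at least 1.5-fold higher and 16.7% at least 1.5-fold lower in Momordicine-I, with a median log2 ratio of -0.01. These percentages are the background for the counts of list members below. Over all members the percentages were 15.5% and 17%. Several lists read differently over all members, where the barcodes with other cell types' markers are included. Proliferation genes then had 12 of 13 higher, with a median of 1.83, homing genes none higher and 3 of 13 lower (-0.29), and T cell receptor genes 1 higher and 6 lower of 21 (-0.28). Checkpoint genes had 4 higher and 3 lower of 13 (0.44), MHC class I genes 5 of 14 lower (-0.35) and the naive factors 3 of 14 lower (-0.46).

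Among 14 transcription factors of naive T cells, 5 were lower at 1.5-fold and none higher, with a median log2 ratio of -0.50. Lef1 and Tcf7, which chose the cells, are in this list. Myb, a factor of T cell progenitors and stem-like cells, stood at 112 CPM in vehicle and 42.0 CPM in Momordicine-I (ratio 0.375, 0.207 to 0.636). By co-receptor, Myb was lower in Cd8 members (64 and 4 UMIs, ratio 0.179, 0.0472 to 0.480). It was not lower in Cd4 members (11 and 6 UMIs, 1.98, 0.601 to 5.84). Foxp1, a factor of quiescence, stood at 439 and 267 CPM (0.610, 0.486 to 0.758), Foxo1, which drives Il7r, at 130 and 76.0 CPM (0.584, 0.376 to 0.879), and Ikzf1, the lymphoid factor Ikaros, at 418 and 265 CPM (0.633, 0.504 to 0.789). Bach2 (0.586, 0.394 to 0.850) was the other. Klf2, a factor of resting T cells, was at 2220 and 2203 CPM (0.992, 0.915 to 1.07), and Il7r at 607 and 587 CPM (0.968, 0.827 to 1.13). The survival gene Bcl2 was at 496 and 451 CPM (0.910, 0.760 to 1.08). The survival receptor and its target were therefore near level while Myb and the Fox factors were lower.

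Of 13 homing and recirculation genes, 2 were higher and 1 lower at 1.5-fold, and the median log2 ratio was -0.15. S1pr1 was at 469 CPM in vehicle and 315 CPM in Momordicine-I (ratio 0.671, 0.544 to 0.822) and Ccr7 at 401 and 296 CPM (0.739, 0.594 to 0.913). The genes that were higher were Itgae, the CD103 integrin of tissue-resident cells, at 16.3 and 44.6 CPM (2.74, 1.30 to 5.79), and the chemokine receptor gene Cxcr4, at 92.6 and 144 CPM (1.56, 1.09 to 2.20). Itgae rested on few UMIs. Cd8 members had 14 in vehicle and 2 in Momordicine-I (0.408, 0.0450 to 1.78), and Cd4 members had 0 in both. Its higher sum thus came from members with neither co-receptor class or both. Cxcr4 was higher in Cd8 members (20 and 27 UMIs, ratio 3.86, 2.08 to 7.25). It was not higher in Cd4 members (43 and 9 UMIs, 0.760, 0.326 to 1.58).

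Of 12 genes linked to quiescence, 2 were lower and none higher, with a median log2 ratio of -0.28. Igfbp4 was at 747 and 325 CPM (ratio 0.435, 0.357 to 0.527), in 93 and 24 cells. Over all members its ratio was 0.614, and 39.0% of its Momordicine-I UMIs then came from 1 cell. Dapl1 was at 167 and 68.2 CPM (0.408, 0.259 to 0.620), in 44 and 10 cells. Among 12 measured cytokine receptor genes 3 were lower and 2 higher. Tgfbr2, the signalling receptor of TGF-beta, was at 166 and 76.0 CPM (0.458, 0.298 to 0.683), and Il6st, the shared signalling chain of the interleukin 6 family, at 85.5 and 39.3 CPM (0.460, 0.247 to 0.803).

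The interferon response list had the largest share of lower members among the lists described here. Type I and type II interferons switch on genes of antiviral and antibacterial defence through IRF and other factors, and resting T cells keep a low level of many of them. All 33 listed genes were measured, and 20 were lower and 3 higher at 1.5-fold in Momordicine-I members, against the backgrounds of 16.7% and 13.9%; the median log2 ratio was -0.86. Over all members 27 were lower and 1 higher, with a median of -1.08. Irgm1 (chr11:48861968-48871683), a GTPase of defence against intracellular bacteria, stood at 52.9 CPM in vehicle (52 UMIs in 30 cells) and 5.24 CPM in Momordicine-I (2 UMIs in 2 cells), a ratio of 0.0991 (0.0117 to 0.376). Slfn8 (chr11:83002158-83020810), of the Schlafen family of lymphocytes, stood at 68.2 CPM in 39 cells and 10.5 CPM in 4 cells (0.154, 0.0407 to 0.412). Ifi206, of the interferon-inducible DNA-sensor family, stood at 122 and 34.1 CPM (0.279, 0.144 to 0.496). These genes were low in both libraries, and in the Momordicine-I members Irgm1 and Slfn8 were near the limit of detection.

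More abundant members of the list were lower as well. Ifi27l2a was at 596 and 273 CPM (ratio 0.457, 0.368 to 0.564). Sp100, a protein of nuclear bodies that is not in the list, was also lower, at 259 and 108 CPM (0.416, 0.291 to 0.580). It had a UMI in 99 and 23 cells. Samhd1, a dNTP hydrolase that restricts retroviruses, was at 292 and 136 CPM (0.467, 0.340 to 0.629). The 3 genes that were higher were Isg15, a ubiquitin-like modifier, at 35.6 and 81.3 CPM, Oasl2, of the oligoadenylate synthase family, at 27.5 and 60.3 CPM, and Ly6a, a surface protein also raised on activation, at 136 and 246 CPM (1.81, 1.37 to 2.37). In the Momordicine-I library 74.2% of the Isg15 UMIs came from 1 cell. The Ifi200, Slfn and Irgm genes have close relatives in the genome, and how reads shared between relatives were counted is not given in the sources used here.

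The interferon list was found across the members. Its 33 genes made up 0.326% of member UMIs in vehicle and 0.206% in Momordicine-I, with per-cell medians of 0.203% and 0.163% and highest values of 2.68% and 0.661%. Above 0.5% lay 22 of 128 vehicle members (17.2%, 11.1 to 24.9%) and 4 of 51 Momordicine-I members (7.84%, 2.18 to 18.9%), with overlapping intervals. The highest 10% of members held 34.8% and 25.1% of the list's UMIs. Without them, 15 of 29 measured genes were still lower and 2 higher, with a median log2 ratio of -0.61, against 17.7% and 13.7% of all genes. By co-receptor, 18 of 28 measured genes were lower in Cd8 members, with a median of -1.36, against 19.6% of all genes. In Cd4 members 8 of 18 were lower, with a median of -0.37, against 22.2% of all genes; the difference between the classes was not tested. The same list had a median log2 ratio of -0.95 in B cells, with 23 of 31 genes lower against 22% of all genes. The B cells still held barcodes with other cell types' markers, with 4188 carcinoma UMIs in vehicle and 23 in Momordicine-I, and the part of these in the result was not tested. The median was -0.44 in gamma-delta T cells, with 13 of 30 lower against 11.7% of all genes. In Foxp3 T cells it was 0.08, with 3 of 33 lower and 5 higher, against 14% and 10.5%.

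Promoters of the interferon genes were searched for the interferon-stimulated response element, the DNA word through which IRF factors act, because 20 of the 33 genes were lower. The letters GAAANNGAAA were looked for on both strands in the 250 bases before each start site, in RefSeq promoters of GRCm38.p6. Of the 33 list genes 25 had a promoter there, and 16 of these (64%) held the word, against 936 of 27025 genes of all kinds (3.46%). It was in 10 of 16 list genes that were lower in Momordicine-I and in 6 of 9 that were not, among them Isg15, which was higher. The list was made of interferon response genes, so the 64% describes the list and not the difference between libraries. Windows of 5 genes with low ratios whose promoters held the word are shown 5′ to 3′ on the strand of the gene, with each response-element match in capitals and overlapping matches run together. They lie at chr11:48871421-48871479 on the minus strand (Irgm1), chr11:83020814-83020893 minus (Slfn8), chr1:173491319-173491393 minus (Ifi206), chr19:34640769-34640848 plus (Ifit1) and chr19:34583372-34583451 plus (Ifit3). The Irgm1 window lies inside the gene span given above, so the RefSeq start that it precedes is not the outer end of that span. A match is a description of the letters and not a measured binding site.
Irgm1: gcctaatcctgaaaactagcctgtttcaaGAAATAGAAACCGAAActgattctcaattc
Slfn8: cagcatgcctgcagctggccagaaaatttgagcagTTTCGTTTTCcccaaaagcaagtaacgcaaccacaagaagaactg
Ifi206: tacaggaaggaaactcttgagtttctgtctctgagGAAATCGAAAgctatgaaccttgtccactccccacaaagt
Ifit1: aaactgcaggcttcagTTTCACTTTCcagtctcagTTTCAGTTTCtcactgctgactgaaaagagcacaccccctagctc
Ifit3: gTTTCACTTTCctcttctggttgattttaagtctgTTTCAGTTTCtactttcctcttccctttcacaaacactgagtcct

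Ifit1 and Ifit3, antiviral proteins that bind foreign RNA, carry the word in both promoters shown. Ifit1 stood at 51.9 CPM in vehicle members and 13.1 CPM in Momordicine-I members (ratio 0.253, 0.0787 to 0.629), and Ifit3 at 26.5 and 2.62 CPM (0.0991, 0.00242 to 0.603, with 1 UMI in Momordicine-I). Irgm1, whose window holds overlapping matches, and Slfn8 and Ifi206, whose windows hold single ones, had ratios of 0.0991, 0.154 and 0.279.

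**Figure D3:**
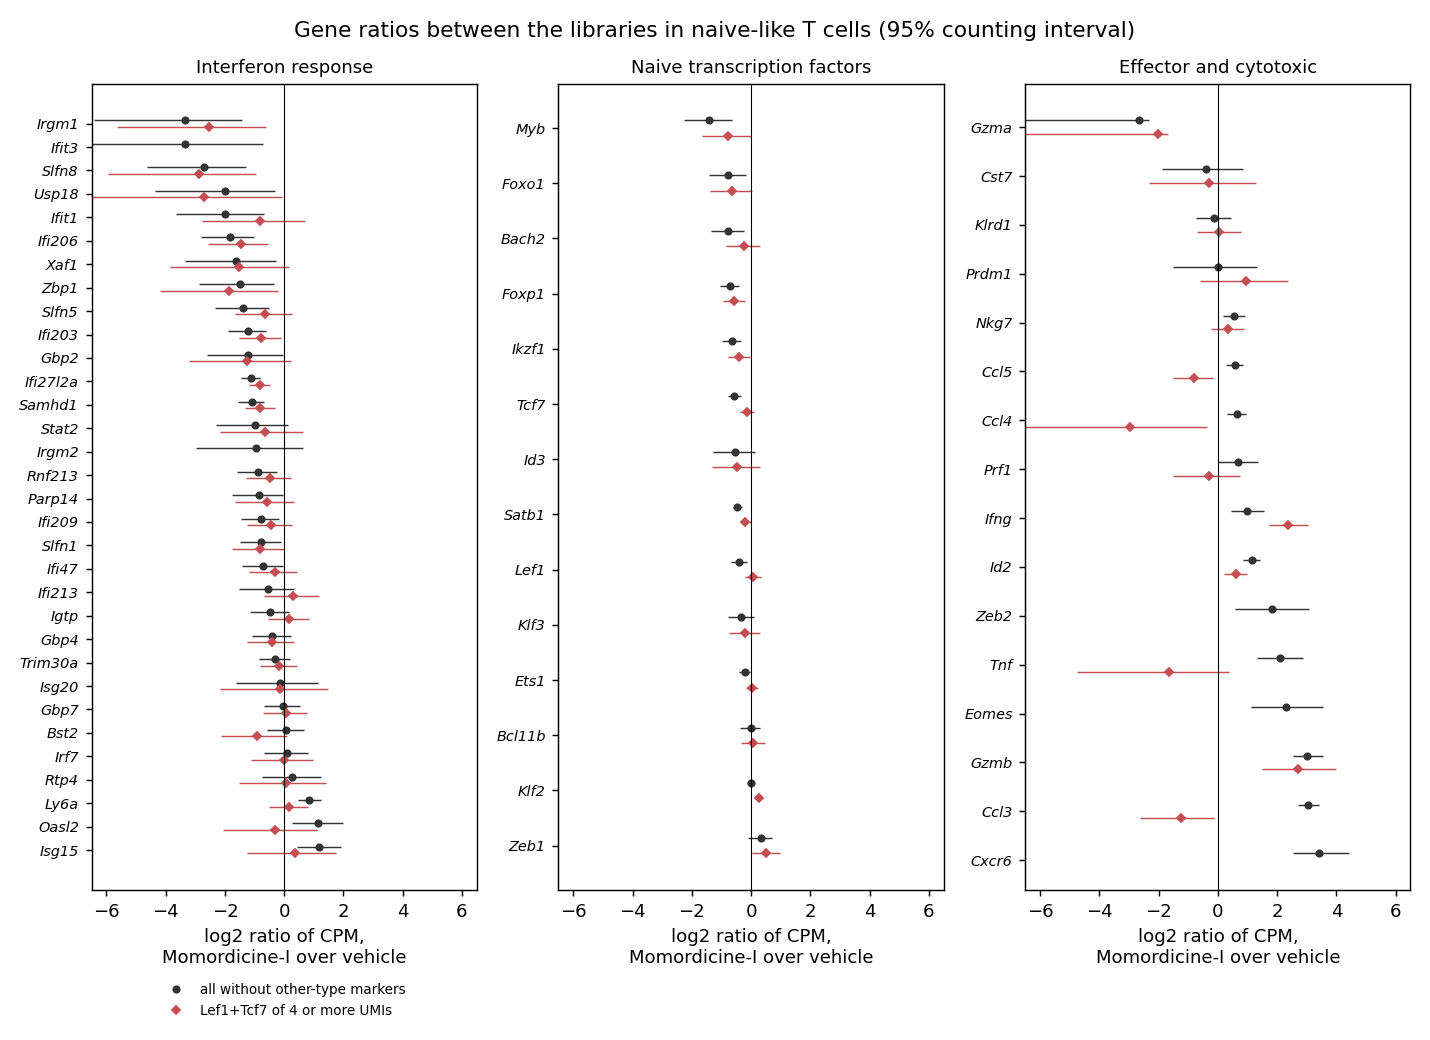
Log2 ratio of CPM, Momordicine-I over vehicle (x axis), for measured genes of the interferon response (all but 1), naive transcription factor and effector and cytotoxic lists (y axis). Circles are members without other-type markers (128 and 51 cells), diamonds the members among them with 4 or more Lef1 and Tcf7 UMIs (118 and 36 cells), and whiskers exact 95% counting intervals, some of which run past the axis; 20 of 33 interferon genes lie below a ratio of 1/1.5 among the circles, and 16 of 31 among the diamonds.

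Other genes on the lower side belong to no list. Among the 12 lower genes taken by the naming rule, Tmem80, a transmembrane protein of the cilium base, had 130 UMIs in 13 vehicle cells and none in Momordicine-I, at least 16.8-fold lower against a floor of 3 counts, but 57.7% of its vehicle UMIs came from 1 cell. Ift80, of the intraflagellar transport machinery, was at 86.5 and 21 CPM (ratio 0.242, 0.101 to 0.5) in 41 and 6 cells. The Golgi protein gene Gcc1 was at 67.2 and 18.4 CPM (0.273, 0.106 to 0.595), and Rnf167, a ubiquitin ligase, at 71.2 and 21 CPM (0.294, 0.122 to 0.613). Wfdc17, a secreted protein of myeloid cells, was at 79.4 and 21 CPM (0.264, 0.110 to 0.547); its direction turned when the neutrophil limit of the rule was lifted.

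Effector and cytotoxic genes were higher in Momordicine-I members, but from few cells. Of 16 measured genes in that list 10 were higher and 1 lower at 1.5-fold, beside a background of 13.9% and 16.7%, with a median log2 ratio of 0.84; over all members 6 were higher and 3 lower, with a median of 0.09. The 12 higher genes taken by the naming rule were Tmem176b, Tmem176a, Bcl2a1d, Lif, Cxcl2, Ccl3, Ccr2, Serpine2, Gzmb, Cxcr6, Csf1 and Il1b. In each of them the cell with the most UMIs in the Momordicine-I library was 1 of 3 members. A Cd8a-positive member with 35848 UMIs, the deepest of the reduced set, held all 30 UMIs of Serpine2, a serpin, 66.1% of those of Ccr2, a receptor of inflammatory chemokines, and 88.1% of those of Tnfrsf9, the 4-1BB co-stimulatory receptor. A member with 9840 UMIs held 68.6% of Cxcl2, 86.1% of Ccl3, 72.1% of Il1b and all 37 UMIs of Csf1, all of them inflammatory chemokine or cytokine genes. It had 2 Cd3e and 2 Trac UMIs, and 1 each of Lef1 and Tcf7. Its effector list share, 3.66% of its UMIs, was the highest of all members. Removing the 153 highest Scrublet scores left out 3 Momordicine-I members, and the log2 ratios of Cxcl2 and Ccl3 became -0.47 and -1.75. Whether the barcode with 9840 UMIs held more than 1 cell was not tested. The member with 23899 UMIs held 73.2% of Tmem176a and 54.2% of Gzmb, the gene of granzyme B.

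Cxcl2 showed how a sum and a count of cells can part. It stood at 367 CPM in vehicle and 2971 CPM in Momordicine-I members, yet had a UMI in 87.5% of vehicle and 78.4% of Momordicine-I members. Traces of neutrophil markers were found in 96.1% of vehicle members. Whether the Cxcl2 UMIs of a member came from that cell was not tested. For Gzmb, at 45.8 and 372 CPM, 11 of 128 and 7 of 51 cells had a UMI. At least 3 of the 20 listed effector genes were found in 32.8% and 37.3% of members, a ratio of 1.14 (0.624 to 2.00). Id2, a factor of effector and innate-like cells, was higher in its sum and in its count of cells, at 225 and 496 CPM (2.20, 1.80 to 2.69) and in 46.1% and 72.5% of members, or 37.4% and 66.7% after thinning.

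Part of these UMIs came from members with transcripts of Zbtb16 (chr9:48654297-48836222), which encodes PLZF, the defining factor of innate-like T cells such as NKT and MAIT cells. They were 1 of 128 vehicle members (0.781%, 0.0198 to 4.28%) and 5 of 51 Momordicine-I members (9.80%, 3.26 to 21.4%), and were singled out after their genes were seen. The 5 cells held 14.8% of the UMIs of the Momordicine-I members. They held 98.2% of the UMIs of Tmem176a and 93.8% of those of Tmem176b, a pair of related membrane proteins, 90.4% of Rora, 63.2% of Icos, and all 10 Il17a UMIs. None of them had a Cd8a UMI. The rule does not use Zbtb16.

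The place of members on the Lef1 and Tcf7 scale is a measure that the rule used, so it is given as a description. Members with only 2 or 3 such UMIs were 10 of 128 in vehicle (7.81%, 3.81 to 13.9%) and 15 of 51 in Momordicine-I (29.4%, 17.5 to 43.8%). Thinned to 4000 UMIs, which left out 5 and 6 cells, members with 4 or more were 71.5% (62.7 to 79.3%) and 57.8% (42.2 to 72.3%), with overlapping intervals. In the cells with 2 or 3, S1pr1 and Ccr7 together had a median of 0.0582% of UMIs in vehicle and 0.0211% in Momordicine-I, and the effector list 0.0876% and 0.294%. In the cells with 4 or more, the medians were 0.0831% and 0.0847% for the homing genes and 0.0385% and 0.0535% for the effector list. By these medians, in both libraries the homing genes were higher, and effector genes lower, with 4 or more UMIs than with 2 or 3. The vehicle side rested on 10 cells. The 4 of them with 3 UMIs had S1pr1 at 573 CPM and Ccr7 at 334 CPM, against 485 and 418 CPM with 4 or more.

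**Figure D4:**
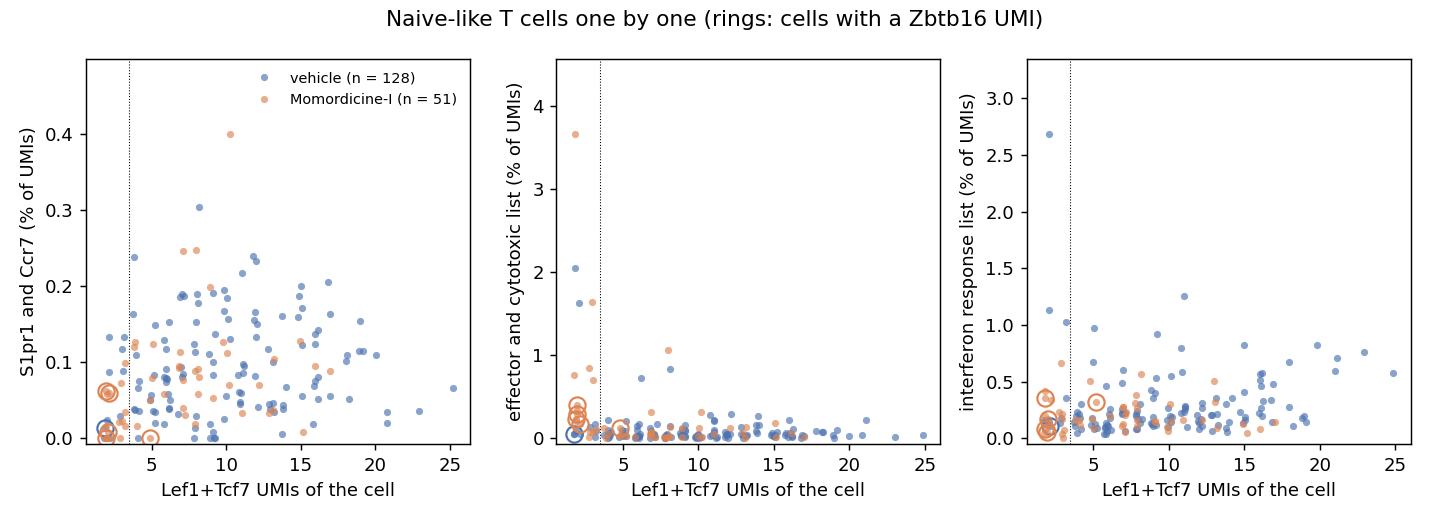
Each naive-like T cell by its Lef1 and Tcf7 UMIs (x axis) and by the percent of its UMIs from S1pr1 and Ccr7 (left), the effector and cytotoxic list (middle) and the interferon response list (right); points are cells, spread slightly sideways, rings mark cells with a Zbtb16 UMI, and the dotted line divides 2 or 3 from 4 or more UMIs. Left of the line are 10 of 128 vehicle and 15 of 51 Momordicine-I cells, and the highest effector values, up to 3.66%, lie there. The value of 3.66% is that of the Momordicine-I member with 9840 UMIs, which held most Cxcl2, Ccl3 and Il1b UMIs of its library's members.

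Restricting to members with 4 or more Lef1 and Tcf7 UMIs, 118 and 36 cells, left smaller differences in the naive factors, S1pr1 and Ccr7. The effector median changed sign. The interferon genes were still lower, but by less, with a median of -0.59 in place of -0.86. In this set 9.85% of 5410 measured genes were higher and 23% lower, with a median log2 ratio of -0.12, so the middle gene was itself slightly lower in Momordicine-I. The effector list had 4 genes higher and 5 lower of 13, with a median of -0.30, and the naive factors 2 lower of 14, with a median of -0.21. None of 12 measured homing genes passed 1.5-fold in either direction, though their median of -0.29 was lower than the -0.15 above. S1pr1 stood at 485 and 418 CPM (ratio 0.863, 0.687 to 1.08) and Ccr7 at 418 and 435 CPM (1.04, 0.830 to 1.30). Igfbp4 remained lower, at 791 and 490 CPM (0.620, 0.505 to 0.755), as did Dapl1 (0.565, 0.348 to 0.878). Of 31 measured interferon genes 16 were lower and none higher, with a median of -0.59. Slfn8 stood at 61.4 and 8.45 CPM (0.138, 0.0163 to 0.521) and Irgm1 at 49.4 and 8.45 CPM (0.171, 0.0201 to 0.656). Outside the list, Sp100 stood at 250 and 106 CPM (0.423, 0.268 to 0.640).

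Checkpoint and co-stimulation genes had 6 of 12 higher and 1 lower, with a median log2 ratio of 0.62; Icos was at 93.6 and 299 CPM and Tnfrsf9 at 34.6 and 155 CPM, both led by the cells described above. Cd28, the main co-stimulatory receptor of naive cells, was at 254 and 446 CPM (1.75, 1.43 to 2.14), and also higher with 4 or more Lef1 and Tcf7 UMIs, at 263 and 465 CPM (1.77, 1.40 to 2.22). Of 21 genes of the T cell receptor complex and its signalling 2 were higher and 2 lower, with a median of -0.14. Prkcq, the protein kinase C of the immune synapse, was lower, at 180 and 102 CPM (0.568, 0.391 to 0.807). Activation and immediate early genes had a median of -0.00, with 4 of 19 higher, such as the orphan receptor gene Nr4a2 at 39.7 and 113 CPM, and 1 lower, Fos at 2741 and 1739 CPM. Antigen presentation by MHC class I had 2 of 14 lower and none higher, with a median of -0.17; one of them was Psmb10, an immunoproteasome subunit, at 78.4 and 36.7 CPM. The GIMAP family of lymphocyte survival GTPases had 2 of 8 lower, with a median of -0.17. Nuclear genes of oxidative phosphorylation (2 of 18 higher, median 0.17), the BCL-2 family (2 of 10 higher and 1 lower, 0.03), heat shock genes (1 of 10 higher, 0.05) and ribosomal proteins (2 of 88 higher, 0.01) had medians near that of all genes. Proliferation genes had 4 of 8 higher, with a median of 0.57. With 4 or more Lef1 and Tcf7 UMIs none of 7 was higher, with a median of 0.18, against 9.85% of all genes. In Cd8 members 4 of 7 were higher (median 1.51), against 22.9% of all genes. In Cd4 members none of 3 was higher (median 0.27), against 14.3%. Mki67, which marks cycling cells, had 1 UMI in vehicle and 4 UMIs, all in 1 cell, in Momordicine-I. Genes of the CD4 lineage had 2 of 5 higher and 2 lower, those of the CD8 lineage 1 of 7 each way, and those of memory and helper subsets 3 of 7 higher and 2 lower, among them Rora at 51.9 and 246 CPM.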

How the data were processed

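The deposited files hold whole-number UMI counts of 32285 genes in each barcode, 1 matrix a library, that the authors did not normalize. The submitters' processing notes name Cell Ranger 6.0.2 and the mm10 genome; further steps are not given in the sources used here. The depth is 33998491 and 41804810 counts. From these counts, cells with fewer than 200 genes (25 and 26) or above 10% mitochondrial UMIs (253 and 297) were left out. Scrublet in scanpy 1.11.5 marked only 2 and 1 cells as doublets, too few to be used, so no doublet was removed in the main values; removing the 91 and 153 highest scores is an alternative.

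Counts were summed over members per library and given as CPM, with Python 3.11.15, numpy 2.4.6 and scipy 1.17.1. Intervals of shares are Clopper-Pearson's; those of ratios are conditional on the summed UMIs and exact. A gene was measured with 20 UMIs over both libraries and called at 1.5-fold; a library at 0 is set to a floor of 3 counts. The scripts were tested on simulated data. With 1 library per group no test was possible.

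The named genes are, between libraries, the 12 higher and 12 lower genes with at least 50 CPM whose interval lies farthest from 1, without receptor segments, mitochondrial, ribosomal, haemoglobin and predicted genes; against other gates, the 12 each way by the lesser of both libraries' folds; between Cd8 and Cd4 members, the 6 each way, leaving out the co-receptors; and list members, naive markers and co-receptors. Members and lists were chosen with earlier results of these data known. Added after seeing the data were the set without other-type members and its limits of 3 and 10 UMIs, the set with 4 or more Lef1 and Tcf7 UMIs, the sets without Zbtb16 or the highest interferon members, thinning to 4000 UMIs, and the motif look-up. Gene positions are GENCODE's for GRCm38 and promoters are RefSeq's for GRCm38.p6. The values of some genes are not reported here.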

Additional observations from a re-analysis of the deposited data

Results flagged for a closer look

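The list genes Ccl4 and Nfkbia stood in opposite directions in Cd4 and Cd8 members, with both intervals on different sides of 1; these differences were not tested. Ccl4, a chemokine gene of activated T cells, had a ratio of Momordicine-I over vehicle of 37.6 (18.2 to 90.1; 8 and 83 UMIs) in Cd4 members and 0.630 (0.442 to 0.880; 195 and 43 UMIs) in Cd8 members. Of its 127 UMIs in Momordicine-I members 63.8% came from 1 cell, and of its 210 UMIs in vehicle members 84.3% came from 1 cell. In Momordicine-I, 1 Cd4 member held 81 of the 83 UMIs of its class, and 1 Cd8 member held 41 of the 43. The vehicle cell lies among the Cd8 members, which held 195 of the 210 UMIs. The 2 Ccl4 ratios therefore rest on single cells and do not describe the classes. Nfkbia, an inhibitor of NF-kappaB that is induced by it, had a ratio of 1.81 (295 and 147 UMIs) in Cd4 members and 0.599 (186 and 39 UMIs) in Cd8 members.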

How the results depend on the processing

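No paired analysis was possible because each group is 1 library and the result comes from no test. The share ratio was between 0.236 and 0.429 over 12 alternatives, and 0.429 with Cd3 cells as denominator. The Cd8 share was 26.1% in vehicle at 5% mitochondrial UMIs and 66.7% in Momordicine-I after thinning to 2000 UMIs.

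Over all members, genes higher numbered 768 with a Cd3 sum of 2, 236 after thinning (418 lower), 617 in Cd8 members (639 lower), 819 without each gene's highest cell, 617 at 50 UMIs (751 lower) and 847 without other-type members. In the reduced set they numbered 243 after thinning (402 lower), 413 in Cd4 members (642 lower), 384 without each gene's highest cell, 1345 at 10 UMIs (1599 lower), 321 at 50 UMIs (345 lower), 533 with 4 or more Lef1 and Tcf7 UMIs and 1311 over all members, and 549 were lower in Cd8 members. Higher genes were 45.5% of calls in the reduced set and 22.0% without each gene's highest cell, which moved the median of all genes to -0.20, and 29.9% with 4 or more Lef1 and Tcf7 UMIs. Lists with a median past 1.5-fold numbered 2 over all members and 3 in the reduced set as reported. Over all members they numbered 5 at 5% mitochondrial UMIs, 5 after thinning, 4 without the highest Scrublet scores, 10 in Cd4 members, 4 without each gene's highest cell and 4 with TMM scaling. In the reduced set they numbered 6 at 5% mitochondrial UMIs, 5 after thinning and 1 in Cd4 members.

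The interferon median kept its sign in 22 alternatives of the reduced set, from -1.36 in Cd8 to -0.37 in Cd4 members. In Cd4 members the quiescence median was 0.10 and the effector median 3.36. That effector median rested on 5 measured genes and was the value of Tnf, with 6 and 17 UMIs. The Momordicine-I member with 9840 UMIs held 253 of the 255 Ccl3 and 81 of the 83 Ccl4 UMIs of its class. With 4 or more Lef1 and Tcf7 UMIs the naive factor median was -0.21, the effector median -0.30 and the checkpoint median -0.059, and without each gene's highest cell the checkpoint median was -0.45. The proliferation median over all Cd4 members was -0.66.

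Named genes changed direction as follows, as log2 ratios. Tmem176a was at -0.39 with 3 or more Lef1 and Tcf7 UMIs, -0.054 with 4 or more and -0.41 without Zbtb16 members. With 4 or more, Cxcl2 was at -0.40, Ccl3 at -1.25, Ccr2 at -1.05 and Cxcr6 at -0.22. Without the highest Scrublet scores Cxcl2 was at -0.47 and Ccl3 at -1.75. After thinning to 2000 UMIs Gzmb was at -1.06, Bach2 at 0.0026 and Ly6c2 at 0.26, and in Cd4 members Ly6c2 was at 0.60. Without each gene's highest cell Ifng was at -2.18 and Tnfrsf9 at -0.41. Wfdc17 was at 0.99 without the neutrophil limit and Csf1 at -0.14 with a limit of 3 other-type UMIs. The causes were not tested. With 51 Momordicine-I members, a gene of few UMIs rests on few cells.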
